A study of Mus musculus with 39 samples.

Results

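The 9 genes described here encode chaperones and regulators of protein folding in the endoplasmic reticulum (ER) and in mitochondria. The ER set has 6 members, Hspa5, Hsp90b1, Calr, Pdia4, Dnajb9 and Xbp1, and the mitochondrial set has 3, Hspe1, Hspd1 and Hspa9. They were chosen by gene symbol out of 13840 genes that have at least 1 array probe annotated to a single gene. Each is read by the probe with the highest mean over the 39 arrays. All 9 had a value on every array, so none was lost to a filter. Hspd1 has 3 such probes and the other members have 1 each, 11 in all.

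RNA came from livers of adult male 129SV mice, either PPARα-null or wild type. PPARα is a nuclear receptor that switches on fatty acid oxidation genes in liver. PFOA, perfluorooctanoic acid, was dosed at 1 or 3 mg/kg, as the ammonium salt dissolved in deionised water, and Wy14,643, a synthetic PPARα activator also called pirinixic acid, at 50 mg/kg in 0.5% methylcellulose. Mice were gavaged on 7 consecutive days, and the vehicle groups received water or methylcellulose alone. In each genotype there are thus 5 groups: water, PFOA 1 mg/kg, PFOA 3 mg/kg, Wy14,643 and methylcellulose. Each group has 4 arrays, except wild type with methylcellulose, which has 3. The study names 4 animals per group, and the labels do not say how the null allele was made or which cells of the liver it covers. The differences below come from a limma fit of all arrays, adjusted by the Benjamini-Hochberg method over 25295 probes, with a change called at an adjusted p under 0.05.

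Proteins for secretion fold in the ER, where Hspa5 (BiP) and Hsp90b1 (GRP94) bind unfolded chains, calreticulin (Calr) holds newly glycosylated ones, and Pdia4 forms and rearranges disulphide bonds. When unfolded protein accumulates, the unfolded protein response raises these genes, in part through the transcription factor Xbp1 and through Atf6, and Dnajb9 (ERdj4), a co-chaperone of BiP, is one of its targets. In the mitochondrial matrix Hspa9 (mortalin) pulls in and folds imported proteins, and Hspd1 (Hsp60) forms a folding chamber that is capped by Hspe1 (Hsp10). Hepatocytes secrete most plasma proteins and carry many mitochondria, so both machineries are prominent in liver.

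The label of 1 array went against its own data, and this touches every wild-type PFOA 1 mg/kg value. On the array labelled replicate 3 of that group Ehhadh, a PPARα target of peroxisomal beta-oxidation, was 15.94 on the log2 scale, while the other 3 arrays lay between 20.01 and 20.31. Cox6b2, a gene that separates the genotypes here, was 9.06 on it and between 16.38 and 16.96 on the other 3. Differences of that group from water are given with and without it, as are other results it enters where they moved. A group of 85 probes splits the arrays into a set of 16 and a set of 23 that the labels do not record; 9 groups have arrays in both, and wild type with Wy14,643 lies wholly in the larger. A silent-gene index, which averages 583 probes of genes that liver does not express, ranged from 8.68 to 9.23 over the arrays. Hepatocyte markers were bright in all groups: the 4 measured (Alb, Apoa1, Ttr and Ahsg) averaged log2 20.67, 20.05, 20.71 and 20.58 over the arrays.

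Promoter stretches of Hspa5, Calr, Hsp90b1 and Hspe1 are shown first. Hsp90b1 is among them although it passed in no treated-against-vehicle comparison of the limma fit described above. Promoter windows of 8 members were searched, and Hspa9 was not. Sequence is from RefSeq on GRCm38.p6, positions are counted from the annotated transcription start, and the window searched was 250 bases before to 50 bases after it. The ER stress response element, CCAAT and CCACG with 9 bases between them, on either strand, is the classical site of the unfolded protein response. It was present in 39 of 32851 windows (0.119%), and among the members in those of Hspa5, Hsp90b1 and Calr, but not in those of Pdia4, Dnajb9, Xbp1, Hspe1 or Hspd1. Capitals mark its constant bases; on the opposite strand they read as CGTGG and ATTGG. The Hspa5 stretch (chr2:34771980-34772069, plus strand) holds 1 element at -65 to -47, the Calr stretch (chr8:84847052-84847121, minus strand) 1 at -162 to -144, and the Hsp90b1 stretch (chr10:86705525-86705664, minus strand) a pair at -212 to -194 and -107 to -89.
Hspa5: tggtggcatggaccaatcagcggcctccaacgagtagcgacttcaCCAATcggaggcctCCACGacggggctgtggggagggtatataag
Calr: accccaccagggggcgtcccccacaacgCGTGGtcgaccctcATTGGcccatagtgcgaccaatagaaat
Hsp90b1: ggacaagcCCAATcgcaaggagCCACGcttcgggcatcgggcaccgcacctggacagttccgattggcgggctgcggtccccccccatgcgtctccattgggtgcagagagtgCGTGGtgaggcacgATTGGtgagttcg

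Hspe1 and Hspd1 lie head to head on chromosome 1, and Hspd1 has 2 annotated starts. From the inner one the start of Hspe1 is 216 bases away, and those windows share 285 bases. The outer one lies 95 bases past the Hspe1 start, its window shares 4 bases with that of Hspe1, and it holds no heat shock element. A heat shock element, TTC, GAA and TTC with 2 bases between neighbours, on either strand, was present in 198 of 32851 windows (0.603%). The stretch before the Hspe1 start, which the inner Hspd1 window also covers, holds it on both strands, at -89 to -77 and, overlapping it, at -84 to -72 from the Hspe1 start. The stretch is chr1:55088008-55088107 on the plus strand, with the bases of both matches that are fixed by the motif in capitals.
Hspe1: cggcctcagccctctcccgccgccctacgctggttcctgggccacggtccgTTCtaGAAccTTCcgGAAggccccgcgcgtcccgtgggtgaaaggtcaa
A direct repeat of the nuclear receptor half-site AGGTCA with 1 base between, on either strand, was found in 13 windows (0.0396%), none of them of the 8 members searched. A match or its absence here describes these letters only.

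Most of the members were bright. The Hspe1 probe averaged log2 18.58 over the 39 arrays, above 99.1% of the probes, and the Hspa5 probe 18.06, above 98.6%. Dnajb9 was the dimmest at 10.45, above 65.4% of the probes. The members differed in how far their group means spread against the scatter inside groups. For Hspe1 the 10 group means spanned 1.09 with a pooled SD of 0.21. For Hspd1 the span was 0.88 with an SD of 0.28, for Calr 0.95 with 0.28, and for Hspa5 0.74 with 0.27. The span of Hspa9, 0.60, was smaller than its pooled SD of 0.71.

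**Figure D1:**
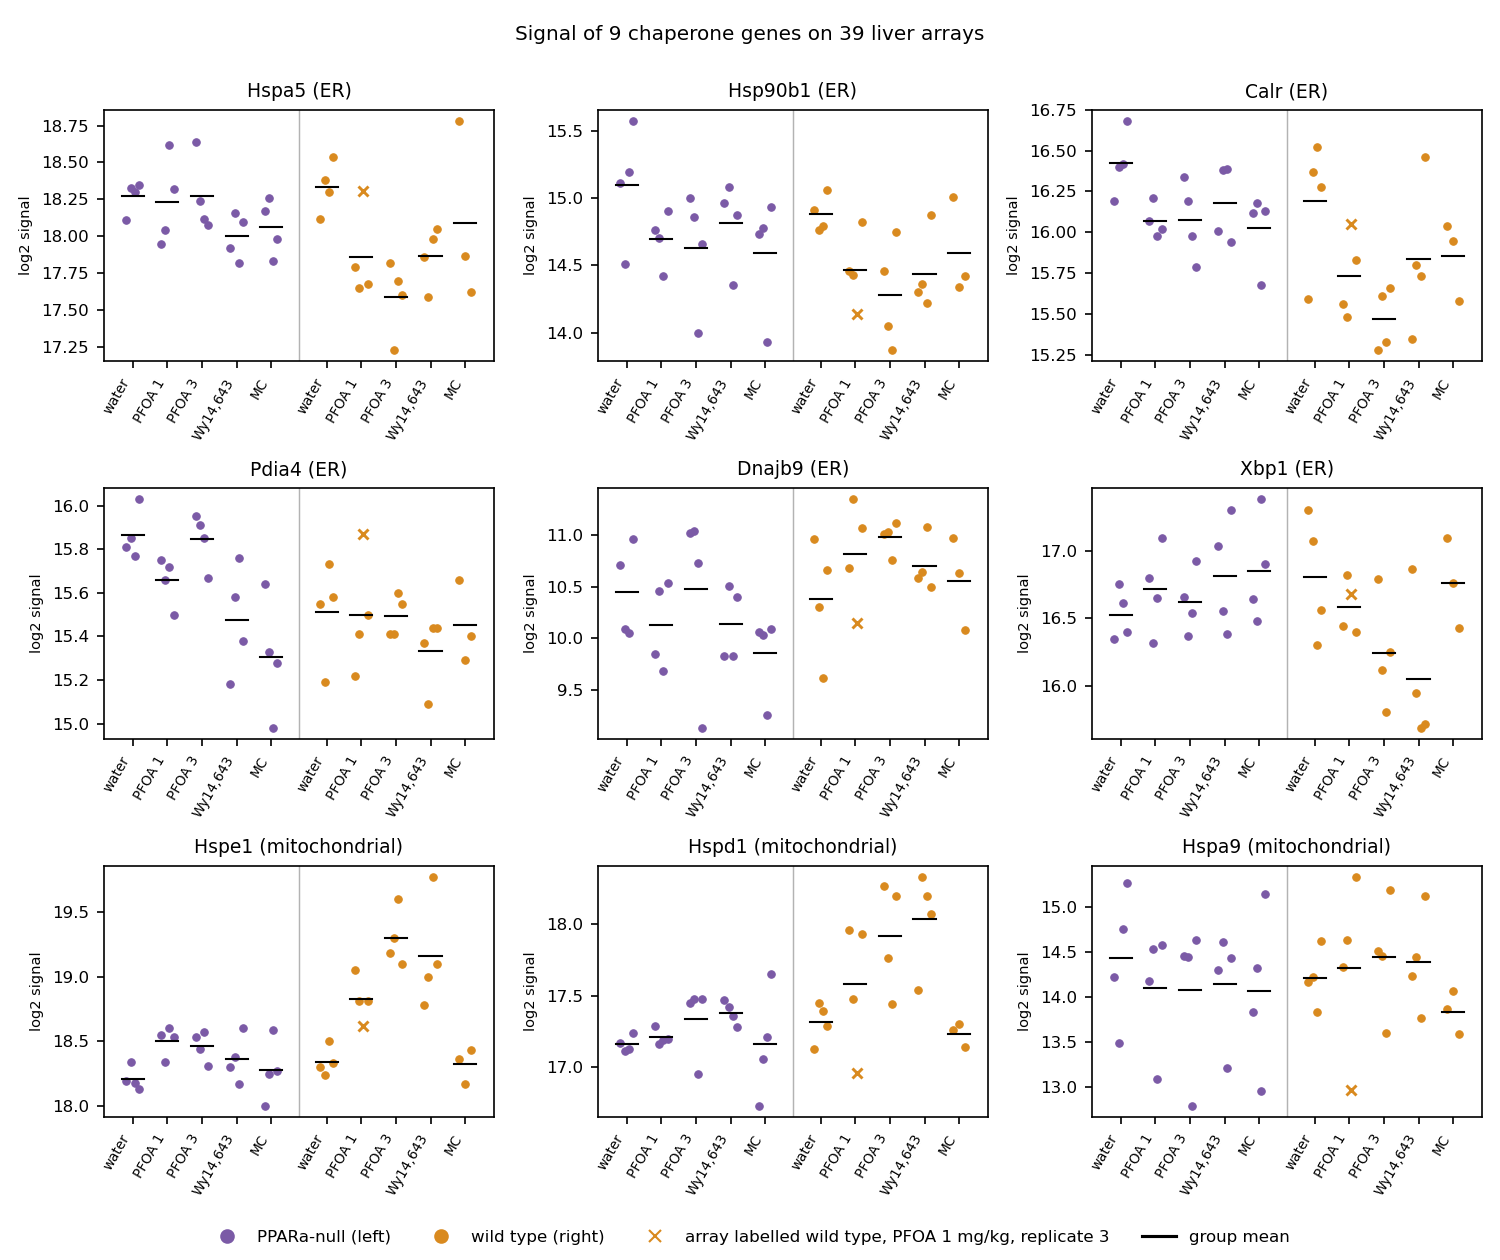
Log2 signal of the 9 members on every array (points) with group means (bars), PPARα-null groups on the left and wild-type groups on the right of each panel; MC is methylcellulose and PFOA doses are in mg/kg. Hspe1 stands highest in wild type with PFOA 3 mg/kg (19.10 to 19.60) and Wy14,643 (18.78 to 19.77), and Hspa5 lowest in wild type with PFOA 3 mg/kg (17.23 to 17.82).

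In wild-type livers with PFOA 3 mg/kg the major ER chaperones Hspa5 and Calr fell. Hspa5 read 17.82, 17.23, 17.70 and 17.60 on the PFOA 3 mg/kg arrays, against 18.12, 18.38, 18.30 and 18.54 on the water arrays. All 4 treated arrays were below all 4 water arrays, as they were for 4.53% of all probes. The difference was log2 -0.75 ± 0.20 (SE, n = 4 each; 1.68-fold lower; limma adjusted p = 0.0205). Calr read 15.28, 15.61, 15.33 and 15.66 with PFOA 3 mg/kg, against 15.59, 16.37, 16.52 and 16.28 with water. Its groups overlapped through the water array numbered 1, which at 15.59 lay among the treated ones. Calr fell by 0.72 on the log2 scale (SE 0.20; 1.65-fold lower; limma adjusted p = 0.0291). In a whole-liver sample, fewer cells of a type and less RNA per cell cannot be told apart.

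The other ER members did not pass in this comparison, and their differences had both signs. Hsp90b1 was 14.46, 14.05, 13.87 and 14.75 with PFOA 3 mg/kg, against 14.91, 14.76, 14.79 and 15.06 with water. Every treated array lay below every water array, though the nearest pair all but touched, and the difference was -0.60 ± 0.25 (limma adjusted p = 0.169). It passed with the replicate number as a block (-0.60 ± 0.18, limma adjusted p = 0.0423). Over all probes these numbers do not pair the arrays here. Hsp90b1 itself followed them, with array 3 lowest in 7 of 10 groups. Xbp1 was 16.79, 16.12, 15.81 and 16.25 with PFOA 3 mg/kg, against 17.30, 17.07, 16.30 and 16.56 with water, and these groups overlapped (-0.57 ± 0.26, adjusted p = 0.234). The labels and files do not place the Xbp1 probe on the transcript, so its signal cannot be split into the spliced and unspliced transcript. Pdia4 differed by -0.02 ± 0.15, with a 95% interval of -0.33 to 0.29. Dnajb9 lay on the other side: 11.01, 11.03, 10.76 and 11.12 with PFOA 3 mg/kg, against 10.96, 10.30, 9.61 and 10.66 with water (0.60 ± 0.34, adjusted p = 0.369). Its treated arrays were close together and its water arrays were spread over more than a log2 unit.

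Among the mitochondrial members Hspe1 rose. It read 19.18, 19.30, 19.60 and 19.10 in wild type with PFOA 3 mg/kg, against 18.30, 18.24, 18.50 and 18.33 with water. Every treated array stood above every water array, as in 5.7% of all probes. Hspe1 was 1.94-fold higher (log2 0.95 ± 0.16; limma adjusted p = 0.000198). Hspd1, its partner in the folding chamber, read 18.27, 17.76, 17.44 and 18.20 with PFOA 3 mg/kg, against 17.13, 17.45, 17.39 and 17.29 with water. Only the treated array numbered 3 lay among the water arrays, and the difference of 0.60 ± 0.20 did not pass (adjusted p = 0.0768). It passed at the same size with the array that went against its label left out of the fit (adjusted p = 0.0455). The other Hspd1 probes gave 0.86 ± 0.32 (adjusted p = 0.109) and 0.89 ± 0.52 (adjusted p = 0.381). Hspa9 differed by 0.23 ± 0.49, and its 95% interval of -0.77 to 1.22 is too wide to place it. With the replicate number as a block it differed by 0.23 ± 0.30 and did not pass (limma adjusted p = 0.735).

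Of the 9 members, 3 thus changed in wild type with PFOA 3 mg/kg, 2 down and 1 up, where 5.82% of all probes changed, 2.46% down and 3.37% up. The Kupffer cell marker list moved as well: of its 9 genes, Vsig4 fell and none rose, and the summed signal was 16.25 to 16.48 with PFOA 3 mg/kg, against 16.80 to 17.05 with water. All 9 Kupffer differences were below 0, with a median of -0.52. The endothelial list of 10 was mixed: its sum was 16.67 to 16.85 against 16.95 to 17.04, Kdr and Stab2 fell, Lyve1 rose by log2 1.52, and the median was -0.10. The stellate list of 8 had a sum of 17.91 to 18.16 against 18.33 to 18.59, but its brightest gene Dcn fell by 0.52, 3 genes were above 0 and the median was -0.08. The sum of the 4 hepatocyte markers was 22.18 to 22.43 against 22.50 to 22.71, with Ahsg fallen. For cells rich in ER, the sums overlapped: 14.13 to 14.69 against 14.36 to 14.96 over 8 B and plasma cell markers, and 12.97 to 15.63 against 13.30 to 15.91 over 7 pancreas acinar markers, with no gene changed in either list. The part of these cell types in the chaperone differences was not tested. Within the smaller array set alone Hspa5 differed by -0.62 and Calr by -0.47, and within the larger set alone by -0.87 and -0.97; neither passed in either set (adjusted p between 0.0791 and 0.612). Hspe1 differed by 0.82 (adjusted p = 0.0859) in the smaller set and by 1.08 (adjusted p = 0.0434) in the larger, and Hspd1 by 1.03 (adjusted p = 0.0316) and 0.18 (adjusted p = 0.804). With the silent-gene index as a covariate the Calr call was lost (-0.67, adjusted p = 0.071) and Hspd1 gained one (0.83, adjusted p = 0.00484). The calls of Hspa5 and Calr also rest on single arrays. Without the PFOA 3 mg/kg array numbered 2, the adjusted p of Hspa5 was 0.0967, and without water arrays 2 and 4 in turn it was 0.0581 and 0.0756. For Calr it was 0.0623 and 0.0954 without PFOA 3 mg/kg arrays 1 and 3, and 0.0988, 0.118 and 0.0791 without water arrays 2, 3 and 4. Of 8 single-array omissions the Hspd1 difference passed in 1, without PFOA 3 mg/kg array 3 (0.76, limma adjusted p = 0.0371).

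At 1 mg/kg PFOA none of the 9 members passed in wild type, where 0.273% of all probes changed. Hspa5, Calr and Hspe1 had an unadjusted p under 0.05 in the limma fit, as had 11% of all probes. Hspa5 averaged 18.33 ± 0.18 with water, 17.86 ± 0.31 with 1 mg/kg and 17.59 ± 0.25 with 3 mg/kg (SD, n = 4 each). The 1 mg/kg arrays were 17.79, 17.65, 18.31 and 17.68, so that the array that went against its label was also the only one at the water level. The difference from water was -0.48 ± 0.20 with all arrays (limma adjusted p = 0.375) and -0.63 ± 0.21 without that array (adjusted p = 0.181). Calr averaged 16.19 ± 0.41, 15.73 ± 0.26 and 15.47 ± 0.19 in the same dose order, and its 1 mg/kg difference was -0.46 ± 0.20, or -0.57 ± 0.22 without the array. Hspe1 averaged 18.34 ± 0.11 with water, 18.82 ± 0.18 with 1 mg/kg and 19.30 ± 0.22 with 3 mg/kg. Its 4 arrays at 1 mg/kg, 19.05, 18.81, 18.62 and 18.81, were all above the water arrays, and the array against its label was the lowest of them. With all arrays Hspe1 is the only member whose 1 mg/kg and water groups did not overlap, which held in the upward direction for 2.91% of all probes. Its difference was 0.48 ± 0.16 (limma adjusted p = 0.264), or 0.55 ± 0.17 without that array (adjusted p = 0.155). Without that array Hspa5 (17.65 to 17.79) and Hspd1 (17.48 to 17.96) did not overlap with water either. The water arrays ranged from 18.12 to 18.54 for Hspa5 and from 17.13 to 17.45 for Hspd1. The share of all probes was not counted for that setting. Hspd1 read 16.96 on that array and 17.48 to 17.96 on the other 3, which moved its difference to 0.48 without the array, against 0.27 with it. The comparisons of both doses share the same water arrays. Set directly against each other, no member passed between 3 and 1 mg/kg in wild type (0.0277% of all probes changed; limma, 1 member and 7.5% of all probes at an unadjusted p under 0.05), with Hspe1 at 0.48 ± 0.16 (adjusted p = 0.391) and Hspa5 at -0.27 ± 0.20. Without the array against its label these were 0.41 ± 0.17 (adjusted p = 0.934) and -0.12 ± 0.21. In null livers none passed either, where 0.00791% of all probes changed. There 0 members had an unadjusted p under 0.05 in the limma fit, as had 4.57% of all probes.

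In wild-type livers with Wy14,643 the Hsp60 and Hsp10 pair rose, and no ER member passed. Hspe1 read 18.78, 19.00, 19.77 and 19.10 with Wy14,643, against 18.36, 18.17 and 18.43 with methylcellulose. Hspd1 read 17.54, 18.33, 18.20 and 18.07, against 17.26, 17.30 and 17.14. In both genes every treated array lay above every vehicle array, as in 7.8% of all probes. Hspe1 was 1.79-fold higher (log2 0.84 ± 0.17; n = 4 against 3; limma adjusted p = 0.00262) and Hspd1 1.74-fold higher (0.80 ± 0.22; adjusted p = 0.0245). The share of all probes that changed was 6.1%, with 2.8% up, and 2 of the 9 members rose. With the silent-gene index as a covariate Hspd1 lost its call (0.60, adjusted p = 0.0683). It lost it as well with the mean of its 3 probes in place of the brightest (adjusted p = 0.168). Leaving out any 1 array but Wy14,643 array 1 ended that call as well: the adjusted p was 0.0808, 0.0735 and 0.052 without Wy14,643 arrays 2, 3 and 4, and 0.071, 0.0593 and 0.0999 without methylcellulose arrays 1, 2 and 3. Since all Wy14,643 arrays are of the larger set, only the methylcellulose group could be cut down: on arrays of the larger set alone Hspe1 differed by 0.86 (adjusted p = 0.0966) and Hspd1 by 0.81 (adjusted p = 0.162).

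The 2 ER members that fell with PFOA 3 mg/kg did not pass with Wy14,643. Hspa5 read 17.86, 17.59, 17.98 and 18.05 with Wy14,643, against 18.78, 17.87 and 17.62 with methylcellulose, and the difference was -0.22 ± 0.21 (95% interval -0.66 to 0.22). The methylcellulose arrays alone spanned more than 1 log2 unit. Calr differed by -0.02 ± 0.22, with an interval of -0.47 to 0.43. Xbp1 had the largest difference of the ER set: 16.86, 15.95, 15.69 and 15.72 with Wy14,643, against 17.09, 16.76 and 16.43 with methylcellulose (-0.70 ± 0.28, limma adjusted p = 0.138). The Wy14,643 array numbered 1 lay apart from the other 3 and among the vehicle arrays. Without it Xbp1 differed by -0.97 ± 0.27 and passed (limma adjusted p = 0.0232), the only 1 of 7 single-array omissions in which it did. That array lay at the vehicle level, so leaving it out had to enlarge the difference. Among the Kupffer cell markers 4 of 9 fell with Wy14,643, and their sums were 16.29 to 16.72, against 17.08 to 17.33 with methylcellulose. Of 10 endothelial markers 4 fell, with sums of 16.53 to 16.83 against 17.04 to 17.29. Lyve1 of that list was not called here, but its null minus wild-type difference in response was -2.35 ± 0.56 (limma adjusted p = 0.0284). The hepatocyte marker Ahsg (-0.87 ± 0.22) and the stellate marker Rgs5 (-0.68 ± 0.18) fell, while the sums of both those lists overlapped with methylcellulose. The part of these cell types in the chaperone values was not tested.

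In PPARα-null livers none of the 9 members passed under any of the 3 treatments. In the limma fit 0 members had an unadjusted p under 0.05 there. The share of all probes that had one was 8.35% with PFOA 3 mg/kg, 3.97% with 1 mg/kg and 2.73% with Wy14,643. Of all probes, 0.3% changed at the higher PFOA dose and 0.0119% at the lower. None changed with Wy14,643, where 691 probes had an unadjusted p under 0.05. Hspa5 read 18.64, 18.24, 18.12 and 18.08 in null livers with PFOA 3 mg/kg, against 18.11, 18.33, 18.30 and 18.35 with water. Those groups overlapped fully, and the 95% interval of the difference was -0.41 to 0.41. Hspe1 read 18.53, 18.44, 18.57 and 18.31 with PFOA 3 mg/kg, against 18.19, 18.34, 18.18 and 18.13 with water. Its difference was 0.25 ± 0.16 with an interval of -0.07 to 0.58, and at 1 mg/kg it was 0.30 ± 0.16 with an interval of -0.03 to 0.62. At 1 mg/kg its null arrays, 18.55, 18.34, 18.60 and 18.53, did not overlap with water (2.24% of all probes), and the lowest of them met the highest water array to 2 decimals. Pdia4 arrays, 15.75, 15.66, 15.72 and 15.50, all lay below water there (2.15% of all probes). Hsp90b1 and Calr lay below water in null livers too, by -0.46 ± 0.25 and -0.34 ± 0.20 with PFOA 3 mg/kg and by -0.40 ± 0.25 and -0.35 ± 0.20 with 1 mg/kg; limma adjusted p-values were 0.637 or more. For Calr at 1 mg/kg the null arrays were 16.07, 16.21, 15.98 and 16.02, against 16.19, 16.40, 16.42 and 16.68 with water. With Wy14,643 in null livers Hspe1 differed by 0.09 ± 0.16 and Hspd1 by 0.22 ± 0.20. In the null PFOA 3 mg/kg group the neutrophil marker S100a8 rose by log2 7.44 ± 0.70 (adjusted p = 8.07e-08), 1 of 5 neutrophil markers. The list's sums were 14.98 to 16.59 against 11.49 to 11.98 with water, but its median was -0.28 and 2 of 5 genes were above 0. Of 8 stellate markers Col1a1 rose (3.10 ± 0.38), with a list median of -0.09. The part of these cells in the chaperone values was not tested.

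Whether the response differed between genotypes was tested directly, by subtracting the response of wild-type livers (treated minus vehicle) from that of null livers. For PFOA 3 mg/kg 0.415% of all probes passed and no member did, with 2 at an unadjusted p under 0.05, as had 10.7% of all probes. Hspe1 was closest there at -0.70 ± 0.22 (95% interval -1.16 to -0.24, limma adjusted p = 0.204), and Hspa5 was 0.75 ± 0.28 (0.17 to 1.32, adjusted p = 0.306). For Calr the interval ran from -0.21 to 0.96. No member passed for Wy14,643 either, where 1.24% of all probes did and 1 member had an unadjusted p under 0.05 (15.1% of all probes); Hspe1 was -0.76 ± 0.23 (adjusted p = 0.0964) and Hspd1 -0.58 ± 0.30 (adjusted p = 0.361). Of 15 single-array omissions this Hspe1 difference passed in 1, without the wild-type Wy14,643 array numbered 1 (-0.88, limma adjusted p = 0.0353). For PFOA 1 mg/kg no probe passed in the limma fit, and 1274 had an unadjusted p under 0.05. Without the array against its label no member passed there either, and the smallest adjusted p was 0.85 (Hspa5, 0.59 ± 0.28).

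**Figure D2:**
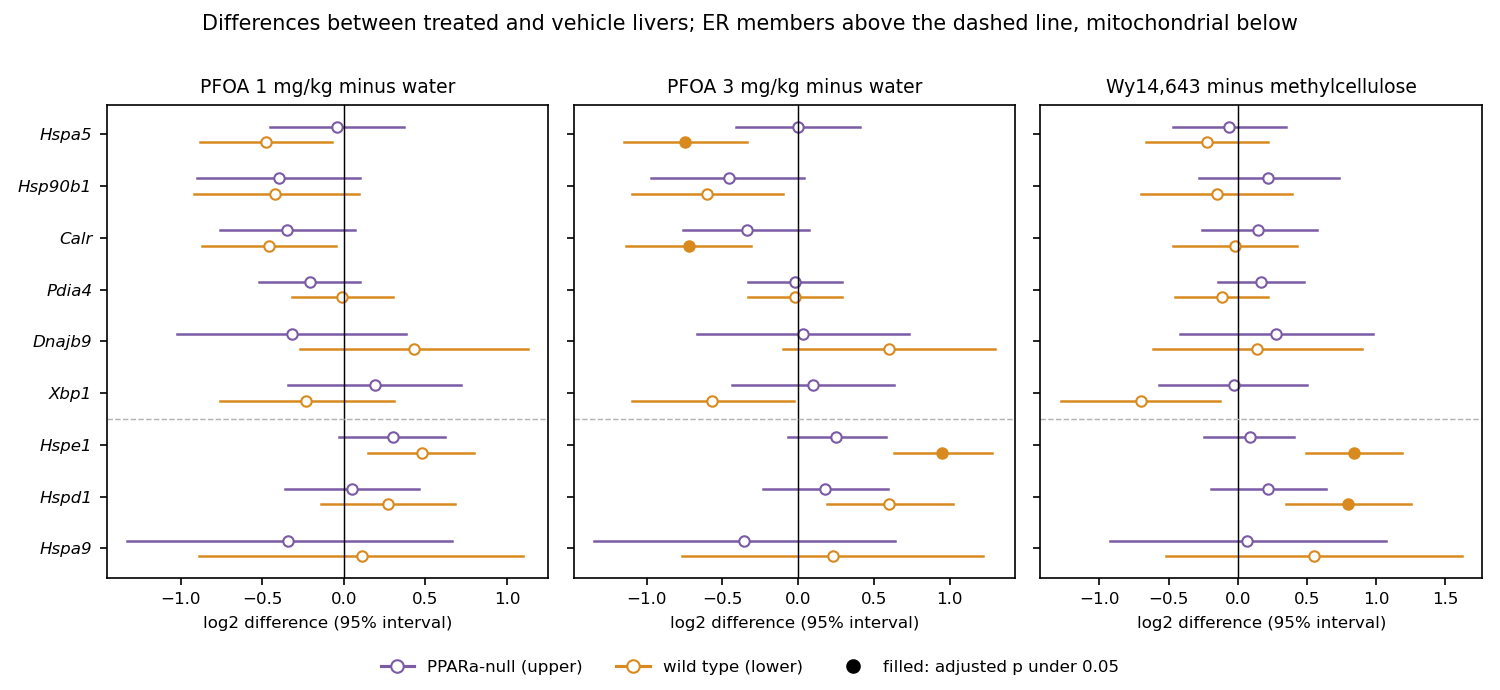
Log2 differences of the 9 members between each treatment and its vehicle, with 95% intervals; null above wild type in each row, and filled points for an adjusted p under 0.05. The filled points are Hspa5, Calr and Hspe1 with PFOA 3 mg/kg and Hspe1 and Hspd1 with Wy14,643, all in wild type.

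The 2 sets were also set against each other within each array, after each member was centred on its mean over the 39 arrays. In wild type with PFOA 3 mg/kg the ER mean minus the mitochondrial mean was -0.66, -0.73, -0.51 and -0.81, against 0.41, 0.24, 0.16 and 0.23 with water. With Wy14,643 it was -0.26, -0.82, -0.69 and -0.73, against 0.63, 0.16 and 0.06 with methylcellulose. In both comparisons the treated and vehicle arrays did not overlap. With PFOA 1 mg/kg it was -0.56, -0.25 and -0.61 on 3 arrays and 0.55 on the array against its label, which lay above all water arrays. In null livers the arrays of treated and vehicle groups overlapped under each treatment. The PFOA 3 mg/kg arrays there were 0.32, 0.18, 0.63 and -0.23, against 0.38, 0.54, 0.23 and 0.31 with water. As a mean of 6 differences minus a mean of 3, the shift was -0.94 for PFOA 3 mg/kg, -0.48 for PFOA 1 mg/kg and -0.91 for Wy14,643 in wild type. The same shifts were -0.14, -0.19 and -0.01 in null livers. Leaving out 1 array at a time gave -0.99 to -0.89, -0.73 to -0.35 and -1.03 to -0.74 in wild type. These are descriptions of chosen genes and carry no test.

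**Figure D3:**
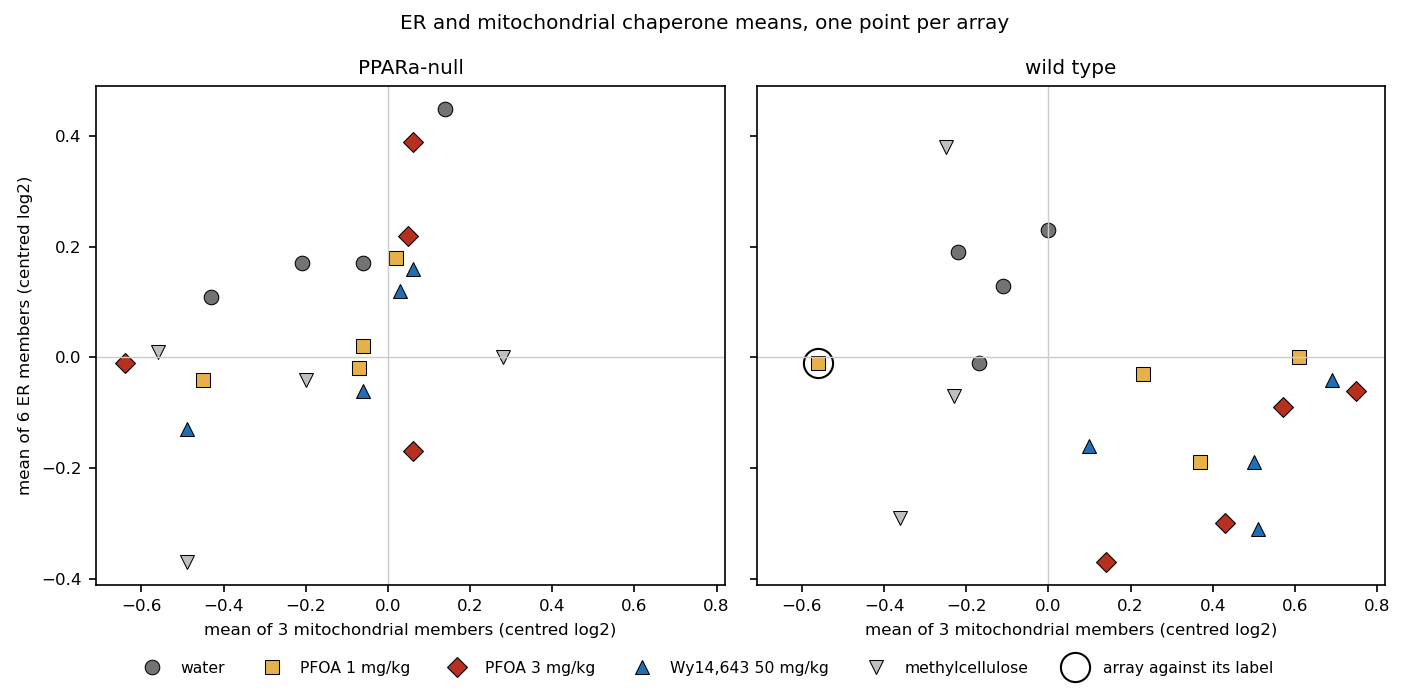
Mean of the 6 ER members (vertical) against the mean of the 3 mitochondrial members (horizontal) on every array, each member centred on its mean over 39 arrays, in log2 units; null on the left, wild type on the right. Wild-type PFOA 3 mg/kg arrays (mitochondrial 0.14 to 0.75, ER -0.37 to -0.06) and Wy14,643 arrays (0.10 to 0.69, -0.31 to -0.04) lie in the lower right, and the circled array against its label lies at -0.56 and -0.01.

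The parts of this shift are given for each compound in wild type. With PFOA 3 mg/kg the ER mean moved to -0.20 ± 0.16, against 0.14 ± 0.10 with water, and the mitochondrial mean to 0.47 ± 0.26, against -0.12 ± 0.10 (SD, n = 4 each). With Wy14,643 the ER mean was -0.17 ± 0.11 (n = 4), against 0.00 ± 0.34 (n = 3) with methylcellulose, and the mitochondrial mean 0.45 ± 0.25 against -0.28 ± 0.07. The PFOA 3 mg/kg response minus the Wy14,643 response in wild type was -0.70 ± 0.30 for Calr (95% interval -1.31 to -0.09; limma adjusted p = 0.304), -0.53 ± 0.29 for Hspa5 (-1.12 to 0.07; adjusted p = 0.445) and 0.11 ± 0.23 for Hspe1 (-0.37 to 0.59). No member passed there, with 1 at an unadjusted p under 0.05 (13.4% of all probes), while 0.0119% of all probes did. None passed in the same test in null livers, where 0.0474% of all probes did. There 0 members had an unadjusted p under 0.05, as had 5.16% of all probes. The doses of the compounds differ, and so do the vehicles.

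No member passed between genotypes on either vehicle or between vehicles in either genotype. Pdia4 alone had an unadjusted p under 0.05 in the limma fit, between genotypes on water and between vehicles in null livers. So had 10.8% and 11.6% of all probes in those comparisons. Between genotypes on methylcellulose 12.5% of all probes had one, and no member did. Null minus wild type on water ranged over the members from -0.28 (Xbp1) to 0.35 (Pdia4), and 0.127% of all probes changed. Pdia4 read 15.81, 15.85, 15.77 and 16.03 in null livers with water, against 15.55, 15.19, 15.73 and 15.58 in wild type, with no overlap, as in 4.74% of all probes (0.35 ± 0.15, limma adjusted p = 0.429). On methylcellulose, where 0.186% changed, Dnajb9 had the largest difference (-0.70 ± 0.37, adjusted p = 0.443). Methylcellulose against water in null livers gave -0.56 ± 0.15 for Pdia4, with 15.64, 15.33, 14.98 and 15.28 against 15.81, 15.85, 15.77 and 16.03. Those arrays did not overlap either, as in 4.48% of all probes, but no probe passed in that comparison (adjusted p = 0.31 for Pdia4; 2931 probes had an unadjusted p under 0.05). In wild type no probe passed for methylcellulose against water, with 2191 at an unadjusted p under 0.05, and Pdia4 differed by -0.06 ± 0.16.

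Ordered by group mean over all arrays, only Hspe1 showed a step between neighbouring groups whose arrays did not overlap. Its 3 highest groups were wild type with PFOA 3 mg/kg (19.30 ± 0.22), Wy14,643 (19.16 ± 0.43) and PFOA 1 mg/kg (18.82 ± 0.18), followed after that step by null with PFOA 1 mg/kg (18.51 ± 0.11) and the 6 other groups, down to null with water at 18.21 ± 0.09. That step was narrow. The lowest wild-type PFOA 1 mg/kg array, the one against its label, read 18.62, and the highest null PFOA 1 mg/kg array 18.60. The groups were ordered by these same values, and the share of all probes with such a step was not counted. Hspd1 had the same 3 groups on top, with overlap at every step. They averaged 18.04 ± 0.35 with Wy14,643, 17.92 ± 0.39 at the higher and 17.58 ± 0.47 at the lower PFOA dose. Without the array against its label the PFOA 1 mg/kg mean was 18.89 ± 0.14 for Hspe1 and 17.79 ± 0.27 for Hspd1 (SD, n = 3). The Hspd1 arrays, from 17.48 up, then cleared the next group, null with Wy14,643, whose highest array was 17.47. They did not clear all groups lower in the order, as null with PFOA 3 mg/kg reached 17.48 and null with methylcellulose 17.65. Hspa5, Calr and Hsp90b1 each had their lowest mean in wild type with PFOA 3 mg/kg, and Xbp1 in wild type with Wy14,643 (16.06 ± 0.55). For Dnajb9 wild type with PFOA 3 mg/kg had the highest mean (10.98 ± 0.16) with all arrays, and PFOA 1 mg/kg (11.03 ± 0.34) without that array. For Hspa9 all 10 means lay between 13.84 and 14.44; without that array the PFOA 1 mg/kg mean was 14.76.

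Hspa9 followed the replicate number more than the group. The array numbered 3 was the lowest in 9 of the 10 groups, and the array numbered 4 was the highest in 8 of the 9 groups that have one. Array number 3 was lowest in at least 9 groups for 0.146% of all probes. In Hsp90b1 array 3 was lowest in 7 groups and array 4 highest in 7, and in Dnajb9 array 3 was lowest in 7. In Hspe1 array 3 was highest in 7. Over all probes, 2.44% had array 3 lowest in at least 7 groups, 1.47% had it highest and 1.3% had array 4 highest. Over the 39 arrays, after group means were subtracted, Hsp90b1 and Hspa9 correlated with r = 0.86 and rho = 0.83. Both permutation p-values within groups were 1e-05, the smallest that 100000 permutations can give, and the adjusted p for r over 36 pairs of members was 0.00036. These permutations exchanged arrays across replicate numbers, which both genes followed in the same direction. Whether the pair correlates apart from the replicate numbers was not tested. The r was 0.82 without the 2 arrays farthest out, 0.87 without the array against its label, 0.74 within 13 arrays of the smaller set and 0.90 within 22 of the larger. No other pair passed; the neighbours Hspe1 and Hspd1 had r = 0.15 within groups (adjusted p = 0.728). Hspd1 also followed the silent-gene index within groups (r = 0.58, permutation p = 0.00076; rho = 0.58, permutation p = 0.00123; adjusted p = 0.00684 over 9 members; 0.58 without the 2 farthest arrays and 0.61 without the array against its label).

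Lists of other folding genes were read in the same way in wild type with PFOA 3 mg/kg, where 3.37% of all probes rose and 2.46% fell. Of 35 other genes of ER folding and export, 3 fell and none rose, with a median of -0.21 against -0.02 for all probes. They are Dnajb11, a co-chaperone of BiP (-0.74 ± 0.17), the disulphide isomerase Pdia6 (-0.68 ± 0.20) and Ssr4, a subunit of the translocon-associated complex (-0.53 ± 0.14). Of 18 genes of ER-associated degradation, which removes misfolded proteins, the lectin Os9 (-0.69 ± 0.15) and Derl2 (-0.61 ± 0.17) fell and the ATPase Vcp rose (0.58 ± 0.17), with a median of -0.19. Of 26 genes of the unfolded protein response sensors and the PERK arm, 2 rose and 2 fell, with a median of 0.14. Vldlr, a lipoprotein receptor (2.01 ± 0.36), and Creb3l3, a liver transcription factor cleaved from the ER membrane (0.70 ± 0.19), rose. Atf4, the transcription factor at the centre of the PERK arm (-0.58 ± 0.16), and Ppp1r15a, a phosphatase subunit that ends PERK signalling (-1.67 ± 0.51), fell.

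Among 31 other mitochondrial chaperones, proteases and import factors 7 rose and none fell in that comparison, with a median of 0.28 against -0.02 for all probes. They include the proteases Spg7 (0.54 ± 0.11) and Clpp (0.64 ± 0.19), the import chaperones Timm8a1 (0.71 ± 0.19) and Timm10 (0.83 ± 0.23), Timm22, the channel of the inner membrane carrier translocase (0.65 ± 0.19), and Grpel1, the nucleotide exchange factor of Hspa9 (0.79 ± 0.21). Dnajc15, a co-chaperone at the import motor, rose by log2 0.47 ± 0.14. Of 31 cytosolic chaperones Hspa4l alone rose (1.18 ± 0.21), with a median of 0.27, near that of the mitochondrial list.

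With Wy14,643 in wild type 2.8% of all probes rose and 3.3% fell. Of the 31 mitochondrial genes 3 rose and none fell: Dnajc15 (0.78 ± 0.15), the prohibitin Phb, which scaffolds the inner membrane (0.84 ± 0.23), and Spg7 (0.46 ± 0.12), with a median of 0.17 against -0.03 for all probes. Of the 35 ER genes 4 fell: Fkbp11 (-1.02 ± 0.30) and Ppib (-0.83 ± 0.22), both prolyl isomerases, Txndc11 (-0.71 ± 0.21) and Ssr4 (-0.52 ± 0.15), with a median of -0.23. Os9 fell by 0.91 (SE 0.16) and Vldlr rose by 1.84 (SE 0.38). Of the cytosolic chaperones Hspa4l rose (1.04 ± 0.23) and Hsph1 fell (-1.52 ± 0.37), with a median of -0.12. In null livers Creb3l3 alone of all these lists changed, up with PFOA 3 mg/kg (1.06 ± 0.19, adjusted p = 0.00371), and the medians there ran from -0.13 to 0.05 with PFOA 3 mg/kg and from -0.03 to 0.08 with Wy14,643. The difference in response, null minus wild type, passed for Vldlr with PFOA 3 mg/kg (-2.89 ± 0.50) and for Os9 (0.94 ± 0.22) and Dnajc15 (-0.80 ± 0.20) with Wy14,643. With PFOA 1 mg/kg none of these genes changed in either genotype.

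**Figure D4:**
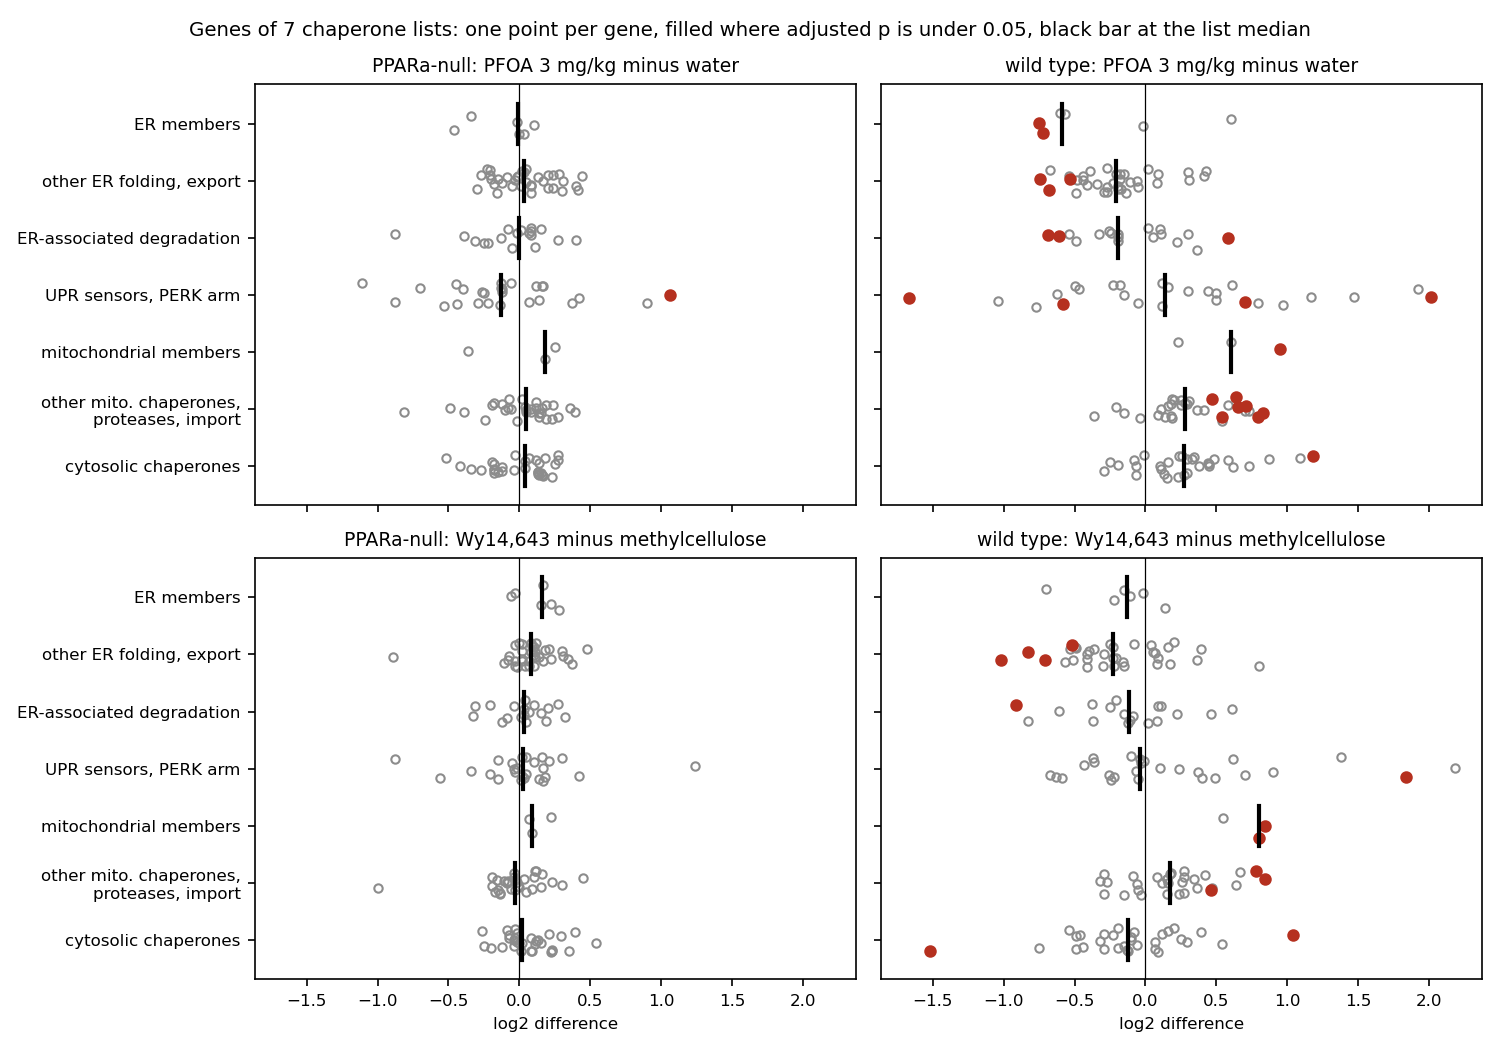
Log2 differences of single genes (points) in 7 chaperone lists, with list medians (bars) and filled points for an adjusted p under 0.05; null on the left and wild type on the right, PFOA 3 mg/kg above and Wy14,643 below. In wild type with PFOA 3 mg/kg the median of 35 other ER genes is -0.21 and that of 31 other mitochondrial genes 0.28; in null they are 0.03 and 0.05.

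The genes whose signal most resembled Hspa5 and Hspe1 were sought among all named probes, as Pearson correlations over the 39 arrays, which share the group differences. Closest to Hspa5 were Pdia6 (r = 0.756), the ER cargo receptor Surf4 (0.733), Dnajb11 (0.727), Carmil1 (0.693) and Stra6l (0.688). With group means subtracted, so that only the scatter inside groups remains, the closest were Tmed3 (0.853), Uso1 (0.716), Ssr1 (0.715), Lrrc59 (0.704) and Sec23b (0.703). Tmed3, Uso1 and Sec23b act in transport between ER and Golgi, and Ssr1 at the translocon. Closest to Hspe1 over all arrays were the lipase Mgll (0.930), cytochrome c, Cycs (0.919), Ggct (0.915), the acyl-CoA synthetase Acsl5 (0.913) and Decr1, an enzyme of mitochondrial beta-oxidation (0.908). With group means subtracted they were Cct6a (0.785), Cycs (0.754), Cct2 (0.736), Ggct (0.734) and Mgll (0.730), of which Cct6a and Cct2 are subunits of the cytosolic chaperonin. Without the array against its label these correlations lay between 0.651 and 0.932. Each set of 5 was picked as the highest of all named probes, and the values are descriptions.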

How the data were processed

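Liver RNA on 39 Applied Biosystems Mouse Genome Survey arrays was analysed from the deposited value table of 33012 probes. The authors deposited log2 values with equal quantiles on every array (median 9.14, range 4.85 to 21.5); this and the base of the logarithm were read from the values, and no source used here names the software or background correction. Of the probes, 14411 have 1 gene symbol in the platform annotation, 247 several and 18354 none, and only the first were named. R 4.3.3 and limma 3.58.1 were used to fit group means to the 25295 probes measured on every array (29 residual and 2.51 prior degrees of freedom) and to test 17 differences, two-sided. The fit was tested on simulated data.

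The members and lists were chosen with earlier results of these data known. Up to 4 called genes per direction were named from each list, with the rest of a short list named after its values were seen. Genotype was taken from the labels. P-values measure the spread between arrays, and the number of arrays limits precision. Alternatives left out arrays singly, changed the normalisation, filters, variance prior and array weights, or added blocks and a covariate. For PFOA 3 against 1 mg/kg the replicate numbers pair the arrays by their correlation (0.134 to 0.31 in wild type, 0.105 to 0.188 in null); blocking changed no call among the members there.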

Additional observations from a re-analysis of the deposited data

Results flagged for a closer look

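In 5 of 81 sets of 4 arrays of a member in a group, 1 array stood apart from the other 3 by more than Dixon's 95% limit; chance flags about 1 in 20 groups. All 5 are low values in null livers. In the PFOA 3 mg/kg group Hspd1 was 16.95 on array 3, with 17.45 to 17.48 on the others, and Hspa9 was 12.79 on the same array, with 14.44 to 14.63 on the others. Dnajb9 was 9.13 on array 4 of that group, with 10.73 to 11.04 on the others. In the methylcellulose group array 3 was low for Calr, at 15.68 with 16.12 to 16.18 on the others, and for Dnajb9, at 9.26 with 10.03 to 10.09 on the others.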

How the results depend on the processing

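No value of a member that passed, with all arrays or under the alternative, changed sign. Of 1881 values of single members under all alternatives, 1732 kept their sign and side of the threshold, 28 lost a call, 13 gained one and 108 that passed in neither fit turned sign, such as Hspa5 with Wy14,643 in wild type (0.12 in the larger array set alone, against -0.22). In wild type with PFOA 3 mg/kg the count of 3 changed members became 1 with only the groups compared in the fit, which leaves fewer arrays to estimate the spread (Hspe1), and 1 to 3 when single arrays were left out; it was 1 without water array 2 or 4. It was 4, adding Hspd1, with array weights (adjusted p = 0.0185), a trended, robust prior (0.0418), probes above the median signal (0.0438) and the array against its label left out (0.0455). For Wy14,643 the count of 2 became 1 with the silent-gene index, 1 with the mean of all probes of a member, 0 with only the groups compared and 3 with array weights, adding Xbp1 (adjusted p = 0.0418), and 1 to 3 when single arrays were left out. For the null minus wild-type Wy14,643 response the count of 0 became 1, Hspe1, with array weights and with a trended, robust prior, and 0 to 1 when single arrays were left out. In the array sets taken alone, an alternative chosen after the data were seen, the PFOA 3 mg/kg count was 1 in the smaller set (Hspd1) and 1 in the larger (Hspe1), and the Wy14,643 count 0 in the larger. In the smaller set the ER minus mitochondrial shift was -0.93 for wild type with PFOA 1 mg/kg and -0.53 for null with Wy14,643, each with 1 array in an arm (PFOA 1 mg/kg array 4, methylcellulose array 1); in the larger set it was -0.29 and 0.23. Single-array omissions moved it from -0.28 to 0.01 in null with PFOA 3 mg/kg, from -0.27 to -0.13 with 1 mg/kg and from -0.14 to 0.14 with Wy14,643. Outside the comparison of doses the numbers were not taken to pair the arrays over all probes, though Hsp90b1 and Hspa9 followed them. Methylcellulose against water in wild type came close, with same-number correlations of 0.095 to 0.204, where the lowest in the null dose comparison was 0.105. The lowest same-number correlation in wild type PFOA 3 mg/kg against water was -0.201. With the replicate block 4 members changed in that comparison, adding Hsp90b1 (-0.60, limma adjusted p = 0.0423).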

Other observations

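The genes whose promoter window holds the ER stress response element were described as a group, chosen by sequence and not by their values. Of 37 such genes 19 were measured, 3 of them members. In wild type with PFOA 3 mg/kg their median was -0.37, or -0.35 for the 16 that are not members, against -0.01 for the 11591 named genes tested. Of the 19, 15 lay below 0, 3 fell (Hspa5, Calr and Pdia6) and none rose. Of all named genes, 5866 lay below 0. With PFOA 1 mg/kg, which shares the water arrays, the median was -0.31 against 0.03 (-0.28 against 0.02 without the array against its label), and with Wy14,643 it was -0.15 against -0.05, with no gene changed. In null livers the medians were -0.09 with PFOA 3 mg/kg (-0.05 for all named genes), -0.10 with PFOA 1 mg/kg (-0.02) and 0.10 with Wy14,643 (0.03). Of the 19, those below 0 in null livers numbered 12 at the higher PFOA dose, 14 at the lower and 5 for Wy14,643. Among all named genes 6561, 6216 and 5044 did so. The wild-type counts were 15 at the lower PFOA dose (16 without the array against its label) and 13 for Wy14,643. Among all named genes these were 5369 (5483 without that array) and 6240. A majority below 0 under PFOA was thus seen in both genotypes. No test was made of this group.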
